A study of Mus musculus with 6 samples.

Results

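The genes described here are 10 mammary lineage factors and hormone receptors: Gata3, Foxa1, Elf5, Sox9, Cited1, Esr1, Pgr, Prlr, Stat5a and Stat5b. They are represented by the array probe sets that the platform annotation gives to exactly 1 gene symbol, that symbol being one of the 10. This rule found 18 of 45037 probe sets, which read 9 of the 10 genes. Prlr, the prolactin receptor, was not analysed here. Of the 9 genes, 3 were read by 1 probe set each and 6 by several. RNA came from 4T1 cells, a tumorigenic and metastatic mouse mammary carcinoma line grown on dishes. One group of 3 samples carried a control shRNA vector and the other 3 carried a vector expressing an shRNA against NFAT1, each collected after 10 days of selection. NFAT1 is a calcium-regulated transcription factor encoded by Nfatc2. The shRNA sequence, and whether the 3 samples of a group came from separate cultures, were not given, so the spread behind each p-value may be no more than technical.

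In the mammary gland, luminal cells line the ducts and basal or myoepithelial cells surround them. Gata3, Foxa1 and Esr1 act together in hormone-sensing luminal cells, where the oestrogen receptor encoded by Esr1 drives Pgr, the progesterone receptor gene. Prolactin binds its receptor, which activates the kinase JAK2. JAK2 phosphorylates STAT5A and STAT5B, which with ELF5 direct the alveolar cells that make milk.

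Values are log2 RMA signals, and every difference is NFAT1 shRNA minus control on that scale. Array medians lay between 5.42 and 5.48, and signals below them were treated as dim, since RMA compresses differences there. The shRNA target Nfatc2 had 6 probe sets, which differed in direction. The most different one, 1439205_at, had a difference of -0.76 (limma adjusted p = 0.0707) and another, 1426032_at, had 0.35 (limma adjusted p = 0.251), so arrays are named by their labels. All 8 markers of mammary epithelium, among them Epcam, Cdh1, Krt8 and Krt18, read above the array medians, with list means of 11.66 to 11.84 in control and 11.56 to 12.01 in NFAT1 shRNA arrays. Of the basal and myoepithelial markers 7 of 8 were dim in both groups, as were 7 of 8 for fibroblasts, 4 of 7 for immune cells and 5 of 6 for endothelial cells. With limma 0 of these marker genes passed. An unadjusted p below 0.05 was reached by 1 of 8 epithelial, 1 of 8 basal and 1 of 8 fibroblast markers, or 12.5% each. The same held for 0 of 7 immune and 2 of 6 endothelial markers, against 17.5% of all genes.

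No member passed. Of the 18 member probe sets 0 had a limma adjusted p under 0.05 over all probe sets, where 0.2% of all probe sets did. An unadjusted p under 0.05 was found for 4 of them, or 22.2%, all higher in NFAT1 shRNA cells, against 15.7% of all probe sets. These 4 were the only probe set of Gata3, both of Stat5a and the brighter one of Stat5b. The groups did not overlap for 5 of the 18, or 27.8%, against 20.9% of all probe sets. In that count 4 were higher (11.6% of all probe sets) and 1, Cited1, was lower (9.33%). The median difference of the members was 0.07 and that of all probe sets 0.02. Of the 18, 9 were dim in both groups. At least 1 probe set read above the array medians for Gata3, Foxa1, Sox9, Esr1, Stat5a and Stat5b, while Elf5, Pgr and Cited1 were dim on all 6 of theirs. In such bulk RNA a lower level per cell and fewer cells with the transcript cannot be told apart.

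**Figure D1:**
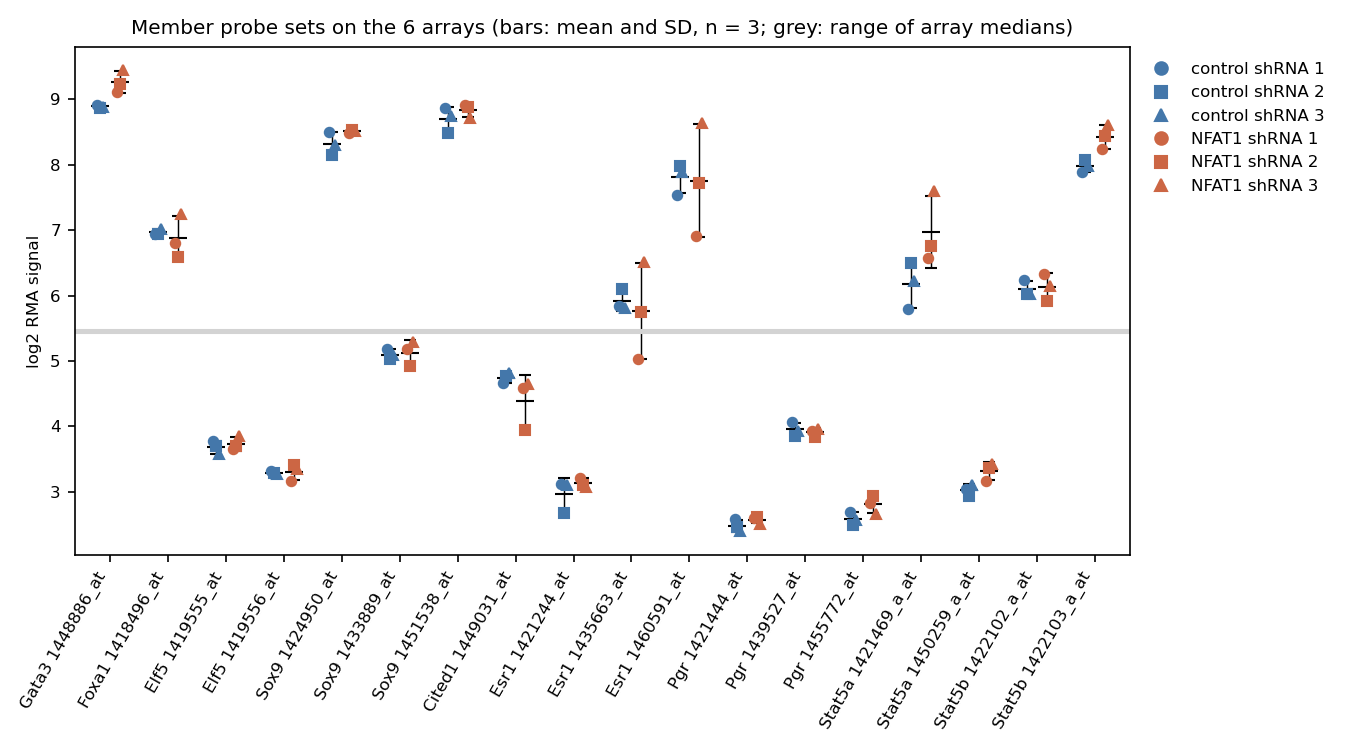
Signal of the 18 member probe sets on each of the 6 arrays, on the log2 RMA scale, with the mean and SD of each group (n = 3) and the range of the array medians in grey. Gata3, both probe sets of Stat5a and 1422103_a_at of Stat5b show no overlap between the groups, with NFAT1 shRNA higher, and the 2 brighter Esr1 probe sets spread widely among the NFAT1 shRNA arrays. Levels of different probe sets are not comparable with each other.

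Gata3 encodes the zinc finger factor that specifies and maintains luminal cells. Its probe set 1448886_at read 8.91, 8.88 and 8.89 on control arrays 1 to 3 and 9.11, 9.24 and 9.45 on NFAT1 shRNA arrays 1 to 3. All NFAT1 shRNA arrays were above all controls, which differed among themselves by only 0.04. The difference was 0.37 ± 0.11 (SE; 95% interval 0.12 to 0.62), a level 129% of control, and it did not pass with limma (adjusted p = 0.213). Over 17 settings it passed in 1, without NFAT1 shRNA 1 (0.45, adjusted p = 0.0342), and its adjusted p ranged up to 0.522. In that setting 12.9% of all probe sets passed and 2 of the 18 member probe sets did, a share near the background.

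Foxa1, a forkhead factor that opens chromatin for the oestrogen receptor, behaved differently on each NFAT1 shRNA array. Its probe set 1418496_at read 6.95, 6.95 and 7.02 in control and 6.80, 6.59 and 7.25 in NFAT1 shRNA cells. The third NFAT1 shRNA array was above all controls and the other two were below them. The difference was -0.09 ± 0.17 (SE; 95% interval -0.49 to 0.31; limma adjusted p = 0.808), and it turned to 0.05 without NFAT1 shRNA 2. The spread of the 3 NFAT1 shRNA arrays was 0.67, against 0.08 among controls.

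Gata3, Stat5a and Stat5b each had a probe set whose groups did not overlap, though none passed and 1 of 2 for Stat5b overlapped, and Foxa1 had none. The stretches before the starts of these 4 genes are shown for description, with the letters at the core of NFAT binding sites, GGAAA on either strand, in capitals. Each is the 250 bases before an annotated start, 5′ to 3′ on the gene's strand, from RefSeq on build GRCm38.p6. Windows were in the table for 9 of the 10 genes, 17 in all, and for Stat5a and Stat5b those holding the letters were chosen. The windows of Cited1, whose dim probe set was lower without overlap, are not shown, and 1 of them held GGAAA at 2 places.
Gata3, chr2:9878601-9878850, minus strand: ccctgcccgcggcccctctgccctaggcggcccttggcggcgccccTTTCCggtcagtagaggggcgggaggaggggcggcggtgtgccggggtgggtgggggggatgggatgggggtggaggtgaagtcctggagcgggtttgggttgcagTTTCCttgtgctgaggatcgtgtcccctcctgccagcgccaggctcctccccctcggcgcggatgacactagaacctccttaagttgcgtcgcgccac
Stat5a, chr11:100860234-100860483, plus strand: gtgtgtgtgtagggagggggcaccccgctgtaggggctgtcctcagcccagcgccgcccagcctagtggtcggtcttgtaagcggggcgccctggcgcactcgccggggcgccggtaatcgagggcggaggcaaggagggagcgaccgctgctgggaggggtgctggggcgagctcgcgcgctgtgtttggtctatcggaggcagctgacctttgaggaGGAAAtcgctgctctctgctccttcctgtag
Stat5b, chr11:100822571-100822820, minus strand: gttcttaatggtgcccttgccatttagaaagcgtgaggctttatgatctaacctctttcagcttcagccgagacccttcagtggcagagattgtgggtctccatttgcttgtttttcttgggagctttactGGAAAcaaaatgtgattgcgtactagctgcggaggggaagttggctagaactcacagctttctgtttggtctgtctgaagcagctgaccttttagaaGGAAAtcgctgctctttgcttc
Foxa1, chr12:57546112-57546361, minus strand: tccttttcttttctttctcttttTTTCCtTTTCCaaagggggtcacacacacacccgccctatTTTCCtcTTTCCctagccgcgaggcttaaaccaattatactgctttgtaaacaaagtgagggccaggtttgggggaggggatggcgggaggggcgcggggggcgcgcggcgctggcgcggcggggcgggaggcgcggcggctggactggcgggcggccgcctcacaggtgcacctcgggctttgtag
The Gata3 and Stat5b windows held GGAAA at 2 places each, the Stat5a window at 1 and the Foxa1 window at 4. The other window of Stat5a and the other of Stat5b held none. On either strand 55.6% of all 32851 windows of this length held the letters at least once and 21.4% at 2 or more places, against 52.9% and 35.3% of the 17 member windows. The Stat5a and Stat5b windows shared a run of 16 identical bases around the match, aGGAAAtcgctgctct, which began 32 bases before the Stat5a start and 23 before the Stat5b start. A palindrome bound by STAT dimers, TTCNNNGAA, was found in 2 member windows, 1 of Esr1 and 1 of Prlr, and in 7.02% of all windows. A site of GATA factors, AGATAA, searched on both strands, was in 0 member windows and in 9.99% of all. These matches describe letters only.

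Stat5a and Stat5b are neighbouring genes on opposite strands that encode near-identical transducers of prolactin and growth hormone signals. Stat5a is the main form in the mammary gland. The Stat5a probe set 1421469_a_at read 5.79, 6.50 and 6.23 in control and 6.57, 6.75 and 7.60 in NFAT1 shRNA cells. The groups did not overlap, but control 2 and NFAT1 shRNA 1 lay close together and NFAT1 shRNA 3 stood well above the rest. The difference was 0.80 ± 0.30 (SE; 95% interval 0.09 to 1.52), a level 175% of control (limma adjusted p = 0.289). It was the only member difference above 0.5 in size, which 8.66% of all probe sets reached, and it ran from 0.49 without NFAT1 shRNA 3 to 1.01 without NFAT1 shRNA 1. The dim probe set 1450259_a_at read 3.05, 2.94 and 3.10 in control and 3.17, 3.36 and 3.42 in NFAT1 shRNA cells. These groups did not overlap either, with a difference of 0.29 ± 0.10 (SE; limma adjusted p = 0.267) far below the array medians.

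The brighter Stat5b probe set, 1422103_a_at, read 7.89, 8.07 and 7.98 in control and 8.25, 8.44 and 8.61 in NFAT1 shRNA cells. Every NFAT1 shRNA array exceeded every control. The difference was 0.45 ± 0.12 (SE; 95% interval 0.18 to 0.73), a level 137% of control, with the smallest limma p of the members (limma adjusted p = 0.186). Over 15 settings it passed in 2, without NFAT1 shRNA 1 (0.55, adjusted p = 0.0241) and with array weights (0.48, adjusted p = 0.0407), and its adjusted p ranged up to 0.519. In these settings 12.9% and 5.06% of all probe sets passed, and 2 and 1 of the 18 member probe sets. The other Stat5b probe set, 1422102_a_at, read 6.23, 6.03 and 6.03 in control and 6.33, 5.91 and 6.15 in NFAT1 shRNA cells. Here the groups overlapped, with a difference of 0.03 ± 0.13 (SE; 95% interval -0.27 to 0.34; limma adjusted p = 0.915). Probe sequences were not used here, so cross-reading between Stat5a and Stat5b, and which transcripts each probe set reads, were not tested.

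**Figure D2:**
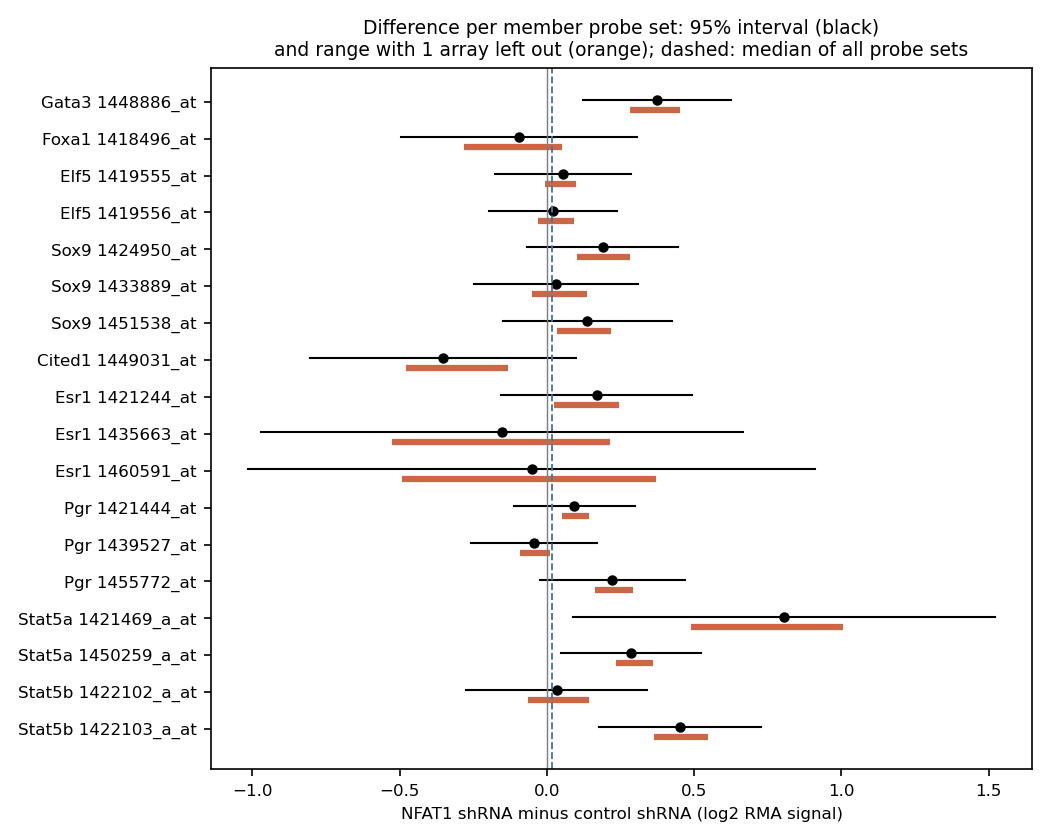
Difference between NFAT1 shRNA and control for each member probe set on the log2 RMA scale, with its 95% interval from limma in black and, in orange, the range when 1 of the 6 arrays is left out. The intervals of Gata3, both Stat5a probe sets and 1422103_a_at of Stat5b lie above 0 before adjustment, and those of the 2 brighter Esr1 probe sets are the widest.

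Among the members Esr1, the oestrogen receptor alpha gene, stood out by its spread rather than by its mean. Its brightest probe set, 1460591_at, read 7.54, 7.98 and 7.90 in control cells but 6.91, 7.72 and 8.64 in NFAT1 shRNA cells. NFAT1 shRNA 1 was below all controls, NFAT1 shRNA 3 above all and NFAT1 shRNA 2 among them. The range of the 3 NFAT1 shRNA arrays was 1.73, a 3.31-fold span, against 0.44 among controls. Only 0.877% of all probe sets had an NFAT1 shRNA range as wide, a share that counts the 48% of probe sets that were dim in both groups. A separate probe set, 1435663_at, read 5.84, 6.09 and 5.82 in control and 5.03, 5.75 and 6.51 in NFAT1 shRNA cells, in the same order and with a range of 1.48, which 1.58% of probe sets matched. The mean differences were -0.05 ± 0.40 (SE; 95% interval -1.01 to 0.91; limma adjusted p = 0.962) and -0.15 ± 0.34 (SE; 95% interval -0.97 to 0.66; limma adjusted p = 0.850). Both intervals span 0 widely. Leaving out NFAT1 shRNA 1 turned the difference on 1460591_at to 0.37, and leaving out NFAT1 shRNA 3 made it -0.49. The third probe set, 1421244_at, was dim, at 2.68 to 3.11 in control and 3.08 to 3.21 in NFAT1 shRNA cells, and did not share this order. A wide range was not particular to Esr1. On NFAT1 shRNA arrays 1 to 3 Csn3 read 4.55, 5.62 and 7.21 and Xdh 4.74, 6.33 and 7.15. Both are from the list of prolactin, STAT5 and milk genes below and were chosen here after their values were seen.

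Pgr, the progesterone receptor gene and a classical oestrogen target, was dim on all 3 of its probe sets. Signals ran from 2.40 to 4.06 over the 6 arrays and these probe sets. The most different, 1455772_at, read 2.70, 2.50 and 2.57 in control and 2.83, 2.93 and 2.66 in NFAT1 shRNA cells, which overlapped (0.22 ± 0.10, SE; limma adjusted p = 0.351). The others differed by 0.09 and -0.04. A level below the array medians does not show that the transcript was absent.

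Elf5, an ETS factor of luminal progenitors and alveolar cells, was dim as well. Its probe set 1419555_at ran from 3.57 to 3.77 in control and 3.66 to 3.86 in NFAT1 shRNA cells, and 1419556_at from 3.27 to 3.31 and from 3.17 to 3.41. Their differences were 0.06 and 0.02, with 95% intervals of -0.18 to 0.29 and -0.20 to 0.24 (limma adjusted p = 0.800 and 0.931).

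Sox9, a factor of mammary stem and luminal progenitor cells, gave 2 bright probe sets with similar readings. On 1451538_at it read 8.86, 8.49 and 8.75 in control and 8.92, 8.88 and 8.72 in NFAT1 shRNA cells. On 1424950_at it read 8.51, 8.15 and 8.31 in control and 8.48, 8.53 and 8.52 in NFAT1 shRNA cells. Control 1 lay at the level of the NFAT1 shRNA arrays on both, and control 2 was the lowest array on both. The differences were 0.14 ± 0.12 (SE; 95% interval -0.15 to 0.42; limma adjusted p = 0.592) and 0.19 ± 0.11 (SE; 95% interval -0.07 to 0.45; limma adjusted p = 0.419). A dim further probe set, 1433889_at, differed by 0.03.

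Cited1, a coactivator that binds the oestrogen receptor and is found in hormone-sensing luminal cells, was the only member whose NFAT1 shRNA arrays all lay below the controls. Its probe set 1449031_at read 4.66, 4.76 and 4.82 in control and 4.59, 3.95 and 4.64 in NFAT1 shRNA cells, all of them dim. NFAT1 shRNA 2 carried most of the shift, and the other two were within 0.10 to 0.16 of the control mean. The difference was -0.35 ± 0.19 (SE; 95% interval -0.80 to 0.10; limma adjusted p = 0.397), and -0.13 without NFAT1 shRNA 2.

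**Figure D3:**
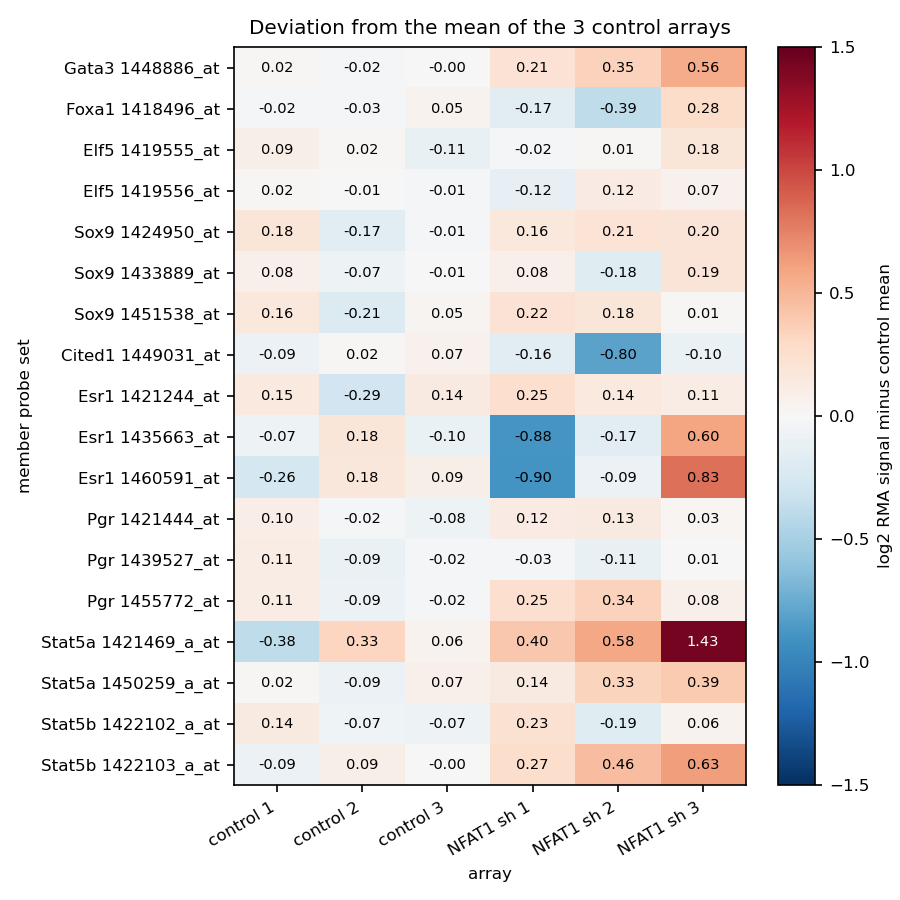
Deviation of each member probe set on each array from the mean of the 3 control arrays, in log2 RMA signal, with the value printed in each cell and red for higher. The deepest red is Stat5a 1421469_a_at on NFAT1 shRNA 3 (1.43) and the deepest blue Esr1 1460591_at on NFAT1 shRNA 1 (-0.90).

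The 3 NFAT1 shRNA arrays were not alike for these genes. NFAT1 shRNA 3 gave the highest of the 3 readings for 11 of the 18 member probe sets, or 61.1%, against 29.1% of all probe sets. It did so for Gata3, Foxa1, both Stat5a probe sets, the brighter Stat5b probe set and both brighter Esr1 probe sets. NFAT1 shRNA 1 gave the lowest of the 3 for 9 of the 18, or 50.0%, against 31.5% of all probe sets. The SD was larger among NFAT1 shRNA arrays than among controls for 13 of the 18, or 72.2%, and for 69.3% of all probe sets. Control 3 lay between the other controls for 10 members, or 55.6%, against 49.7% of all probe sets. The part of these array differences in the members' values was not tested.

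Other genes of prolactin and STAT5 signalling and milk came from a list of 27, of which 26 were read, each by its probe set of highest mean. With limma 0 passed over all probe sets, where 0.302% of genes did. An unadjusted p under 0.05 was found for 5 higher and 1 lower, or 23.1%, against 17.5% of all genes. Their median difference was 0.12, against 0.04 for all genes. Jak2, the kinase bound to the prolactin receptor, read 8.87, 9.40 and 9.21 in control and 10.04, 10.65 and 10.64 in NFAT1 shRNA cells. All NFAT1 shRNA arrays were above all controls, with a difference of 1.28 ± 0.21 (SE; limma adjusted p = 0.0843), and its second probe set differed by 1.45 (limma adjusted p = 0.0890). With the replicate number as a block, Jak2 passed (adjusted p = 0.00735), as did 3.18% of all probe sets. Btn1a1, which encodes butyrophilin of the milk fat globule, read 6.47, 6.34 and 6.52 in control and 5.27, 5.17 and 5.76 in NFAT1 shRNA cells (-1.04 ± 0.16, SE; limma adjusted p = 0.0771). With the block it passed as well (adjusted p = 0.0176). Its 2 other probe sets were dim and differed by -0.12 and -0.05.

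The milk protein gene Csn3, kappa casein, read 3.67, 3.89 and 4.18 in control and 4.55, 5.62 and 7.21 in NFAT1 shRNA cells. NFAT1 shRNA 3 again stood highest, and the difference of 1.88 ± 0.61 (SE) did not pass (limma adjusted p = 0.249). All 3 controls and NFAT1 shRNA 1 were dim. The second probe set of Csn3, 1451851_a_at, was dim in both groups and differed by 0.16. The beta casein gene Csn2, the whey acidic protein gene Wap and the lactalbumin gene Lalba, chosen here after their values were seen, differed by -0.03, 0.11 and 0.15. Csn2 and Wap were dim in both groups, and the Lalba groups did not overlap (limma adjusted p = 0.475). Xdh and Plin2 differed by 1.15 and 0.36, with overlapping groups. Of the 26 genes 20 had a higher mean and 6 a lower one. Of 4 feedback inhibitors of cytokine signalling in the list, also given after their values were seen, Socs1 and Socs3 differed by 0.07 and 0.11, with overlapping groups (limma adjusted p = 0.858 and 0.726). On its probe set of highest mean, 1449109_at, Socs2 differed by 1.09 ± 0.44 (SE; limma adjusted p = 0.311), and the groups overlapped. With the replicate block that adjusted p was 0.0475. All 6 Socs2 probe sets read higher. The groups did not overlap on 1442586_at (0.59; limma adjusted p = 0.138) and the dim 1441476_at (0.20; limma adjusted p = 0.396), but did on the others. Cish read 6.15, 6.28 and 6.25 in control and 6.48, 6.37 and 6.58 in NFAT1 shRNA cells, which did not overlap (0.25 ± 0.09, SE; limma adjusted p = 0.285).

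Among oestrogen and progesterone receptor targets and coregulators, 21 of 26 genes were read and 0 passed with limma, while 5 were higher and 3 lower at an unadjusted p under 0.05, or 38.1%, against 17.5% of all genes. Nrip1, an oestrogen-induced corepressor of nuclear receptors, read 8.88, 8.73 and 8.78 in control and 9.19, 9.96 and 9.67 in NFAT1 shRNA cells. The groups did not overlap (0.81 ± 0.19, SE; limma adjusted p = 0.166), and each of its 6 probe sets read higher. Pgrmc1, a membrane haem-binding protein linked to progesterone, read 10.95, 10.79 and 10.91 in control and 10.57, 10.34 and 10.58 in NFAT1 shRNA cells (-0.39 ± 0.10, SE; limma adjusted p = 0.193). Tfap2c, an AP-2 factor of luminal cells, was dim and differed by 0.38 (limma adjusted p = 0.229). Myb and Greb1, both oestrogen targets, were chosen after their values were seen. Myb had the largest difference in size of this list, and read 8.23, 7.93 and 8.22 in control and 7.89, 6.30 and 6.90 in NFAT1 shRNA cells. The groups did not overlap (-1.09 ± 0.37, SE; limma adjusted p = 0.263), all 3 of its probe sets read lower, and it passed without NFAT1 shRNA 1 (-1.52, adjusted p = 0.00933) and with array weights (-1.40, adjusted p = 0.0382). Greb1 was dim and differed by 0.02. Other oestrogen targets of this list went the other way from Myb. Igfbp4 differed by 0.38, with all 6 of its probe sets higher, Tff1 by 0.32 and Xbp1 by 0.23. Of the 21 genes 14 had a higher mean and 7 a lower one.

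Of 42 other transcription factors of mammary lineages 41 were read, with 6 higher and 3 lower at an unadjusted p under 0.05, or 22.0%, against 17.5% of all genes. By the probe set of highest mean 0 passed with limma. Id4, which encodes an inhibitor of helix-loop-helix factors active in basal mammary cells, nevertheless rose on its other 2 probe sets. On 1423259_at it read 5.24, 4.71 and 5.02 in control and 6.98, 7.07 and 6.80 in NFAT1 shRNA cells. On 1450928_at it read 4.73, 4.34 and 4.27 in control and 5.80, 5.83 and 5.92 in NFAT1 shRNA cells. The 3 NFAT1 shRNA arrays lay close together on each, over 1 unit above every control. The rises were 1.96 ± 0.15 (SE; limma adjusted p = 0.0174) and 1.40 ± 0.13 (SE; limma adjusted p = 0.0233). The third, 1423260_at, differed by 0.59 ± 0.12 (SE; limma adjusted p = 0.120), with no overlap. Counted by any of its probe sets, a rule added after the data were seen, Id4 was the 1 gene of 111 over the 4 lists that passed, or 0.901%, against 0.374% of all genes. Its adjusted p on 1423259_at was 0.117, 0.125 and 0.217 without control 2, control 1 and control 3, 0.0687 without NFAT1 shRNA 2 and 0.0640 without control 3 and NFAT1 shRNA 1 together, with differences of 1.82 to 2.08 over all settings. In those settings 1450928_at did not pass either, nor without NFAT1 shRNA 3 (0.0626). The 2 others named by rule were Foxm1, a cell cycle factor (-0.55; limma adjusted p = 0.156), and Cebpa, a differentiation factor (0.47; limma adjusted p = 0.235).

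**Figure D4:**
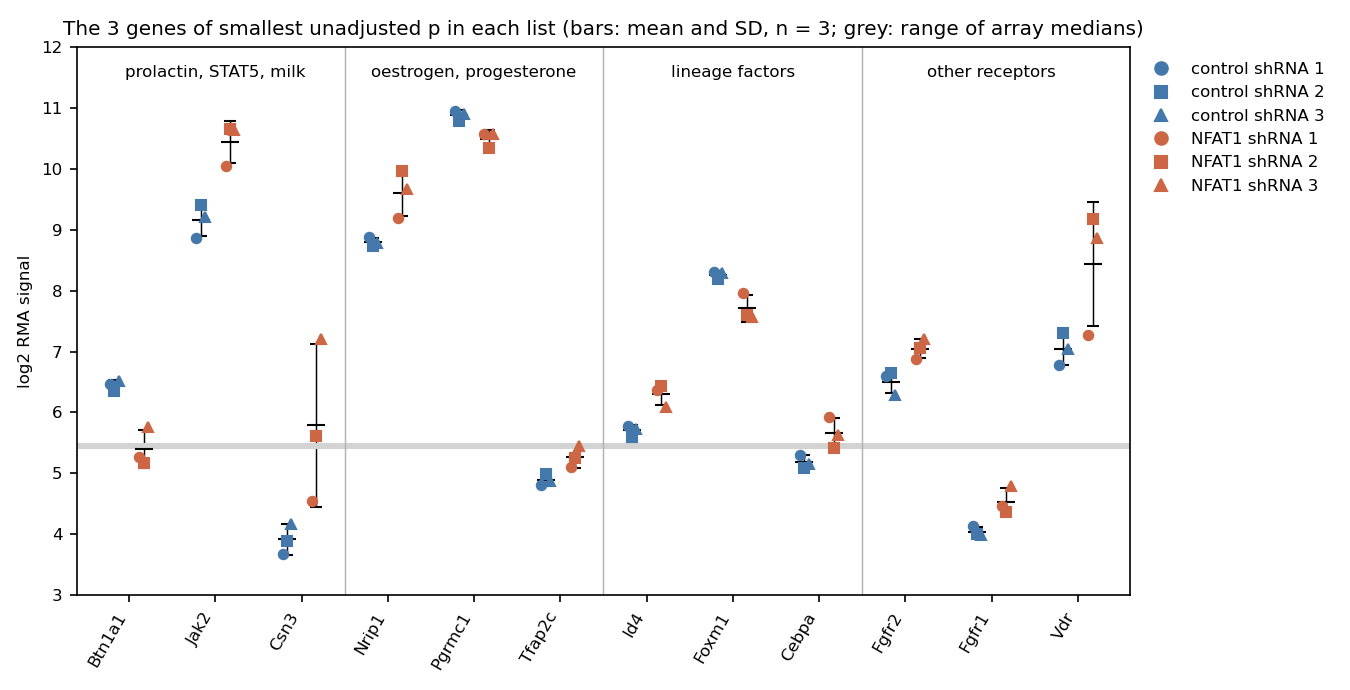
Signal on each array, on the log2 RMA scale, of the 3 genes with the smallest unadjusted p in each of the 4 lists, by the probe set of highest mean, with the mean and SD of each group (n = 3) and the range of array medians in grey. Jak2 lies higher on all NFAT1 shRNA arrays and Btn1a1 lower, while Csn3 and Vdr spread widely among the NFAT1 shRNA arrays.

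Among other hormone and growth factor receptors, 23 of 24 were read and 0 passed with limma, with 4 higher and 0 lower at an unadjusted p under 0.05, or 17.4%, against 17.5% of all genes. Fgfr2, a fibroblast growth factor receptor of epithelia, read 6.59, 6.64 and 6.29 in control and 6.88, 7.06 and 7.20 in NFAT1 shRNA cells (0.54 ± 0.13, SE; limma adjusted p = 0.181). The groups did not overlap, but 1 of its 3 probe sets differed by -0.09. Fgfr1 was dim and differed by 0.49 (limma adjusted p = 0.189). Vdr, the vitamin D receptor gene, read 6.78, 7.30 and 7.05 in control and 7.28, 9.18 and 8.86 in NFAT1 shRNA cells. NFAT1 shRNA 1 lay within the controls and the other two well above them (1.40 ± 0.47, SE; limma adjusted p = 0.261).

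Krt14, the basal keratin gene and the 1 bright marker of the basal list, was chosen after its values were seen. It read 10.67, 10.38 and 10.56 in control and 9.38, 7.46 and 8.40 in NFAT1 shRNA cells, without overlap. All 3 of its probe sets read lower, and the brightest differed by -2.12 ± 0.44 (SE; limma adjusted p = 0.137). Its part in the values of the lineage factors was not tested. Of the 8 basal and myoepithelial markers 5 had a higher mean and 3, Krt14 among them, a lower one. The other 7 were dim. Krt5 differed by -0.06, Oxtr by -0.03, Trp63 by 0.02, Myh11 by 0.04, Acta2 by 0.16, Cnn1 by 0.19 and Mylk by 0.35. Of the 8 epithelial markers Krt18, a luminal keratin gene also chosen after its value was seen, was the only one with an unadjusted p under 0.05, at 0.27 ± 0.09 (SE; limma adjusted p = 0.256). The other luminal keratin genes Krt8, Krt7 and Krt19 differed by 0.09, 0.02 and -0.03, and the cadherin gene Cdh1 by -0.12. Epcam differed by 0.21, Cldn4 by 0.13 and Esrp1 by 0.13. Of the 8 epithelial markers 6 had a higher mean and 2 a lower one.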

How the data were processed

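Gene expression was read on 6 Affymetrix mouse arrays, 3 a group, with groups and replicate numbers from the labels. The authors deposited log2 signals from RMA, as named in the submitters' processing notes, with no version stated. Its quantile step makes the arrays' distributions alike and would hide a shift of most transcripts. Of 45037 probe sets 34945 had 1 gene symbol, 932 several, and 9160 are unnamed here. Gene numbers matched 34741 of the first kind to the GRCm38.p6 gene table, and 0 symbols changed.

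All probe sets were fitted with limma 3.58.1 (lmFit, eBayes; R 4.3.3), without filter or covariates, with 2-sided p-values adjusted by Benjamini-Hochberg over all of them. Passed means an adjusted p under 0.05. The fit was tested on simulated data. Genes outside the members were counted by the probe set of highest mean. Named genes are every member, and of each list the genes that passed and the 3 with the smallest unadjusted p under 0.05. Members and lists were chosen with earlier results of these data known. Alternatives were filters on dim probe sets, other scaling, variance priors, array weights, the replicate block, left-out arrays and other choices of probe sets. The number of arrays limits the precision.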

Additional observations from a re-analysis of the deposited data

How the results depend on the processing

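The 0 member probe sets that passed stayed 0 in 15 of 17 settings. With array weights 1 passed, and without single arrays 0 to 2. The weights were 5.01 for control 3 and 0.37 to 1.15 for the other arrays, lowest for NFAT1 shRNA 1, so that fit leans on control 3. Over all probe sets the 90 that passed became 2279 with array weights, 0 without control 3 and NFAT1 shRNA 1 together, and 0 to 5794 without single arrays. The counts were 0 without control 1, 2 or 3 or NFAT1 shRNA 2 (3992, 5086, 4251 and 4290 at an unadjusted p under 0.05 with limma) and 5794 without NFAT1 shRNA 1. With both arrays left out 9273 had an unadjusted p under 0.05. The 0 genes of the 4 lists that passed became 10 with array weights, 1 when a gene's probe sets were averaged (Id4), 1 by any probe set (Id4), and 0 to 19 without single arrays. Btn1a1 was the 1 gene that passed without NFAT1 shRNA 3.

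Labels give both groups the numbers 1 to 3, without saying that a number marks a shared culture or day. Deviations from the group means correlated at 0.62, 0.51 and 0.05 for numbers 1 to 3 over all probe sets, and at 0.74, 0.68 and 0.14 over those reaching 7 on any array. Whether each pair exceeds 0.1 thus depends on the probe sets used, so values with the block are given as well. Over all probe sets 5 of 6 arrays correlated best with their own number in the other group, a hint from the data only. The exception, NFAT1 shRNA 3, correlated at 0.27 with control 2 and 0.05 with control 3. Control 3 matched its own number on that 0.05, against -0.02 with NFAT1 shRNA 1 and -0.02 with NFAT1 shRNA 2. With the replicate number as a block 1432 probe sets and 0 member probe sets passed. The smallest limma adjusted p of a member with the block was 0.0689, for Stat5b 1422103_a_at. The adjusted p was 0.0829 for Stat5a 1421469_a_at, 0.108 for Gata3 and 0.165 for Stat5a 1450259_a_at. Of the list genes 3 passed with the block, Jak2 (adjusted p = 0.00735), Btn1a1 (0.0176) and Socs2 (0.0475).

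Signs turned in these settings, each with an adjusted p of at least 0.455. With quantile normalization again Elf5 1419556_at was -0.011 and Sox9 1433889_at -0.0099. With array weights Sox9 1433889_at was -0.015 and Esr1 1460591_at 0.0040. Without control 3 and NFAT1 shRNA 1 together, Esr1 1435663_at was 0.16, Esr1 1460591_at 0.42 and Stat5b 1422102_a_at -0.10. With 1 array left out, the ranges were -0.029 to 0.092 for Elf5 1419556_at, -0.0050 to 0.10 for Elf5 1419555_at, -0.050 to 0.14 for Sox9 1433889_at, -0.53 to 0.21 for Esr1 1435663_at, -0.49 to 0.37 for Esr1 1460591_at, -0.091 to 0.011 for Pgr 1439527_at, -0.065 to 0.14 for Stat5b 1422102_a_at and -0.28 to 0.053 for Foxa1. Gata3, Stat5a, Cited1 and the brighter Stat5b probe set kept their sign in every setting that gave them a value. So did Sox9 1424950_at and 1451538_at, Esr1 1421244_at, and Pgr 1421444_at and 1455772_at. Of all these, Gata3 passed in 1 setting and the brighter Stat5b probe set in 2, and the others, Stat5a and Cited1 among them, in 0. Signals near background limit what can be read of Pgr, Elf5 and Cited1.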
